A study of Mus musculus with 10 samples.

Results

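Apoptotic cells can be taken up through many macrophage receptors besides Mertk. The genes described here are 10 such receptors and bridging proteins, chosen by symbol: Stab1, Lrp1, Scarf1, Cd36, Msr1, Cd300a, Cd300lf, Cd300lb, Timd4 and Mfge8. All 10 were found among the 21938 genes of each of the 10 library tables, and all 10 passed the filter of at least 10 reads in at least 3 libraries that left 11564 genes to test. The question put to them was whether any of them was higher where macrophages were made to lack Mertk.

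The libraries hold mRNA of tumour-associated macrophages sorted from mammary tumours of C57BL/6 mice, 5 weeks after injection of PyMT cells into 2 mammary glands. PyMT stands for the polyoma virus middle T antigen, an oncogene that gives rise to mammary tumours. In the control group (n = 3) both the tumour cells and the mice were WT. In the Mertk KO group (n = 4) WT tumour cells grew in mice with a macrophage-specific MerTK KO. In the Ptdss1 knockdown group (n = 3) the mice were WT and the tumour cells carried a knockdown of Ptdss1, a phosphatidylserine synthase. The labels name neither the Cre driver nor the deleted exons, and they leave unsaid if a library is 1 mouse or a pool. The p-values weigh group differences against the spread between these libraries, estimated over all 3 groups together.

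A dying cell exposes the lipid phosphatidylserine on its outer surface, and macrophages read it in several ways. Mertk binds it through the soluble bridges Gas6 and Pros1, whereas Timd4, the Cd300 receptors, Stab1 and Cd36 can bind phosphatidylserine or its oxidised forms without those bridges. Scarf1 and Lrp1 recognise apoptotic cells through complement C1q or calreticulin, and Mfge8 links phosphatidylserine to integrins.

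The libraries held 10292592 to 25815071 recovered reads. Ptdss1 knockdown replicate 1 stood apart: 31.5% of the genes detected in at least 7 of the other libraries had fewer than 10 reads in it. The share was 13.1% in control replicate 2 and at most 8.60% elsewhere. All 10 macrophage markers looked for were detected, at a summed level of 22326 to 44861. These sums are in reads per 1000000 recovered reads. Epithelial and tumour cell markers (6 of 7 passed the filter) summed to 21.3 to 33.0 in the controls, 65.3 to 159.5 in Mertk KO and 0.21 to 59.8 in Ptdss1 knockdown. Markers of resident macrophages (2 of 5 passed, Vsig4 at 0) summed to 15.9 to 59.1, 66.6 to 209.4 and 0.09 to 125.1. The member Timd4, which is on this list and passed, was at most 2.63 in the controls and 0.68 in Mertk KO. The higher sums in Mertk KO thus came from other markers of the list. NK and T cell markers (5 of 7 passed) summed to 98.8 to 139.6 in the controls and 14.6 to 46.0 in Mertk KO. Sums over the other lists overlapped between Mertk KO and control, and ran from 28.1 to 95.1 for endothelial cells (Emcn and Cldn5 at 0), 0.80 to 79.3 for adipocytes (Adipoq and Cidec at 0), 0 to 6.66 for platelets (Gp9 at 0), 0.09 to 61.8 for fibroblasts (Lum at 0), 27.6 to 273.6 for neutrophils (S100a9 and Ly6g at 0), 0 to 47.4 for dendritic cells and 0 to 42.4 for B cells. The epithelial, resident macrophage and NK and T cell sums did not overlap between Mertk KO and control, and their part in the results below was not tested. In bulk libraries fewer cells of a type and less RNA per cell cannot be told apart.

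Mertk itself was read in every library. Its log2 values, which are log2 of normalised reads plus 1, were 9.64, 9.26 and 10.97 in the controls, 10.63, 9.72, 9.24 and 8.95 in the libraries labelled Mertk KO, and 7.47, 10.20 and 9.0 in Ptdss1 knockdown. The groups overlapped. The log2 fold change of Mertk KO over control was -0.32 (SE 0.70, limma adjusted p = 1.0). A gene total does not show which exons the reads came from, so the Mertk level does not check the label. "Mertk KO" is used below as the name the labels give.

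Stab1, Lrp1 and Scarf1 were the members whose 4 Mertk KO libraries all lay above all 3 controls. The 250 bases before the RefSeq start of Stab1 and Lrp1 are shown because these 2 genes also varied together across the libraries, and those of Mertk are shown beside them. Scarf1 was not among the matched entries, which covered 8 of the 10 members. Capitals mark matches, on either strand, to GAGGAA, the core bound by the macrophage factor PU.1, or to GGGCGG, the Sp1 box. The sequences are from RefSeq on GRCm38.p6, at chr14:31168642-31168891 (minus strand), chr10:127621149-127621398 (minus strand) and chr2:128698665-128698914 (plus strand).
Stab1: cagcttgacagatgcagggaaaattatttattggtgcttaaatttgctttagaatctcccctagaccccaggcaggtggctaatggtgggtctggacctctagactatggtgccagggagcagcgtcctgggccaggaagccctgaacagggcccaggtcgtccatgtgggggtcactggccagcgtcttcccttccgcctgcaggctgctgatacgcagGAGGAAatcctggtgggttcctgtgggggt
Lrp1: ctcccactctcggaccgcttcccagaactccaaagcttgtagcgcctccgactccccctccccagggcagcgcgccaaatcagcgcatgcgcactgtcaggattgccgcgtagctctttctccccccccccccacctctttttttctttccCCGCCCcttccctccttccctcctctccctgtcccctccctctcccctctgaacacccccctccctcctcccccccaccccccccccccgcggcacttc
Mertk: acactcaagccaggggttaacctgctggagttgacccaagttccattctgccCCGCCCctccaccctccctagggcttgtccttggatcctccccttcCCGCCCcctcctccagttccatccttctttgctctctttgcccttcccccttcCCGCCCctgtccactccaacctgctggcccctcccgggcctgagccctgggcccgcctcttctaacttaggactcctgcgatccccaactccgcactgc

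Stab1 held 1 GAGGAA and no GGGCGG, Lrp1 held 1 GGGCGG and no GAGGAA, and Mertk held 3 GGGCGG and no GAGGAA. Over 32851 mouse promoter windows of the same length, 23.25% held GAGGAA and 32.74% held GGGCGG. GC content was 57.2% for Stab1, 67.2% for Lrp1 and 63.6% for Mertk, against a median of 52.4% over all windows. A match describes letters, not a bound site.

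Stab1 encodes stabilin-1, a scavenger receptor that binds phosphatidylserine (chromosome 14, 31139013 to 31168641, minus strand). Its log2 values were 10.45, 10.93 and 11.12 in the controls, 11.81, 11.47, 12.29 and 11.48 in Mertk KO, and 13.12, 11.09 and 11.05 in Ptdss1 knockdown. Every Mertk KO library was above every control, while in Ptdss1 knockdown only replicate 1 was. Limma gave a log2 fold change of Mertk KO over control of 0.93 (SE 0.51, 95% interval -0.14 to 1.99, unadjusted p = 0.084, adjusted p = 1.0). Exons of Stab1 overlap those of Nt5dc2 on the other strand by 112 bases, and unstranded reads there cannot be assigned.

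Lrp1, a large endocytic receptor that pairs with calreticulin (chromosome 10, 127538161 to 127621148, minus strand), behaved much like Stab1. Its log2 values were 10.81, 10.85 and 10.94 in the controls, 12.13, 11.48, 12.23 and 12.06 in Mertk KO, and 13.58, 10.82 and 11.34 in Ptdss1 knockdown. The controls were close together and all 4 Mertk KO libraries were above them. Mertk KO over control gave a log2 fold change of 1.11 (SE 0.54, 95% interval -0.03 to 2.24, unadjusted p = 0.055, adjusted p = 1.0).

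Scarf1 encodes a scavenger receptor that takes up apoptotic cells coated with C1q (chromosome 11, 75513540 to 75526582, plus strand). It had 22, 0 and 115 reads in the controls, 181, 115, 472 and 119 in Mertk KO, and 685, 198 and 61 in Ptdss1 knockdown. On the log2 scale these were 4.24, 0 and 6.41, then 8.06, 6.57, 8.58 and 6.59, then 9.22, 7.55 and 5.26. The lowest Mertk KO library was only just above control replicate 3. Its log2 fold change of Mertk KO over control was 3.90 (SE 1.72, 95% interval 0.28 to 7.52, unadjusted p = 0.036, adjusted p = 1.0). It was 2.12 without control replicate 2, the library with no Scarf1 read.

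In the comparison of Mertk KO with control by limma, 0 of 10 members passed an adjusted p of 0.05, against 0.0173% of the 11564 genes tested. At an unadjusted p of 0.05 the count was 1 of 10 (Scarf1), against 2.06%. The spread behind these p-values includes Ptdss1 knockdown replicate 1, a library outside this comparison. Without it, limma gave unadjusted p = 0.0046 (SE 0.33, adjusted p = 0.83) for Lrp1 and 0.017 (SE 0.35, adjusted p = 0.84) for Stab1. Their fold changes were unchanged. Scarf1 stayed below an unadjusted p of 0.05 and the other members above it. The share of all genes below an unadjusted p of 0.05 at that setting is not given, and the 2.06% does not apply to it. At an adjusted p of 0.05, 0 of 10 members and 4 of 11540 genes passed in limma without that library. These p-values therefore do not set the members apart from other genes. Of the members, 3 of 10 were above the controls without overlap, against 3.00% of all genes, and 0 of 10 were below without overlap, against 2.62%. The members were chosen with earlier results of these data known, and Stab1 and Lrp1 varied together (r = 0.95). These counts are therefore a description and not a test of the members as a set. The median log2 fold change was 0.25 over the members and 0.02 over all genes, with 6 members positive and 4 negative. The fold changes of Stab1, Lrp1 and Scarf1 were positive under all 21 alternative settings, at 0.74 to 1.07, 0.95 to 1.27 and 2.12 to 5.33, and none reached an adjusted p of 0.05. Because these 3 genes did not overlap between the groups, leaving libraries out cannot reverse their sign. The stable sign is therefore no further support.

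**Figure D1:**
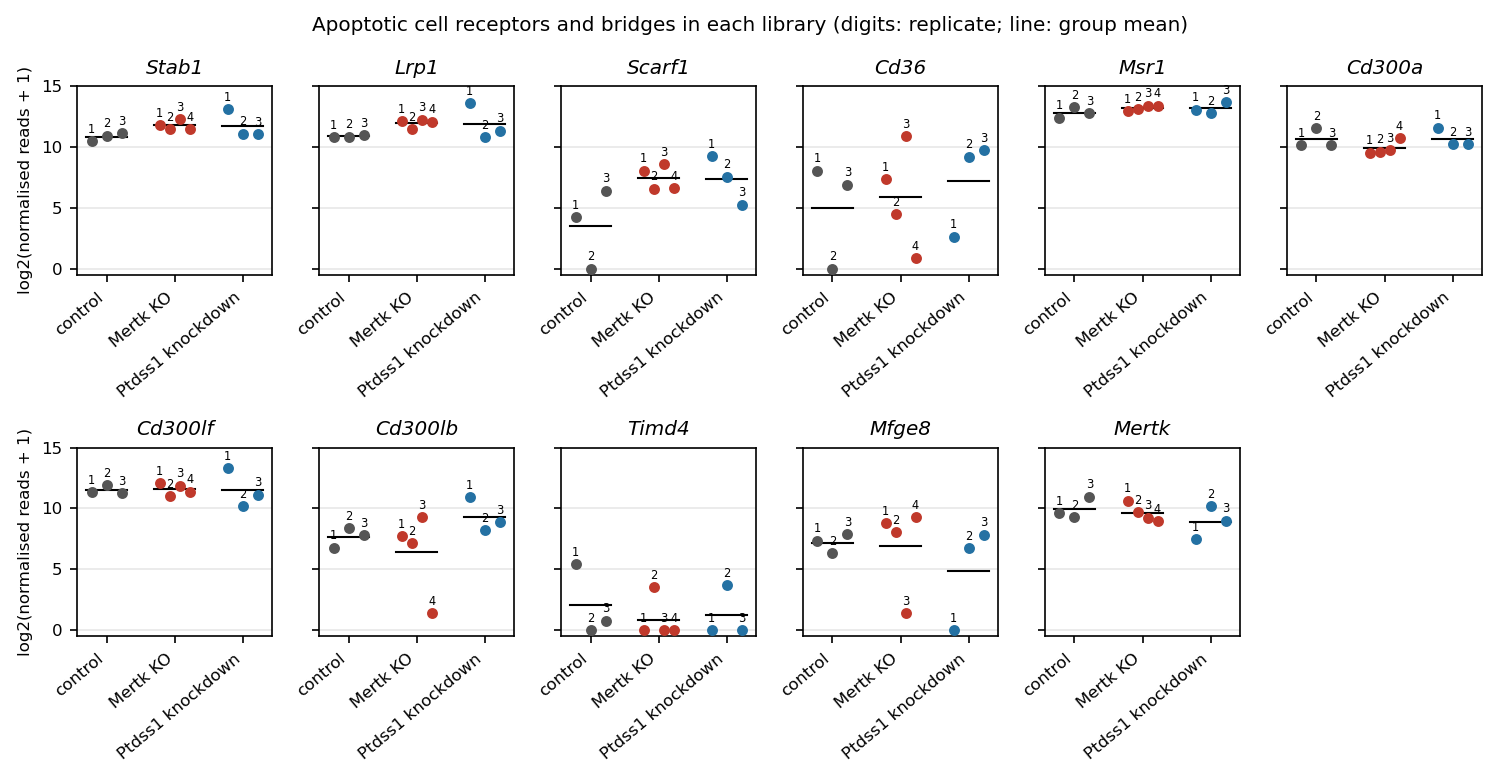
Log2 of normalised reads plus 1 (vertical axis) of the 10 members and Mertk in each library, by group; digits name the replicate and lines are group means. All 4 Mertk KO libraries lie above the 3 controls for Stab1, Lrp1 and Scarf1, and the groups overlap for the other members and for Mertk.

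Msr1, the class A scavenger receptor that marks many macrophages (chromosome 8, 39581685 to 39642673, minus strand), was high everywhere. Its log2 values were 12.41, 13.24 and 12.79 in the controls, 12.96, 13.11, 13.37 and 13.40 in Mertk KO, and 13.07, 12.78 and 13.67 in Ptdss1 knockdown. The groups overlapped, with 2 of 4 Mertk KO libraries above all controls. Over control, the log2 fold change was 0.40 (SE 0.38, 95% interval -0.40 to 1.20) in Mertk KO and 0.36 (SE 0.41) in Ptdss1 knockdown. The first was 0.20 without control replicate 1 and 0.61 without control replicate 2.

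Cd36, a class B scavenger receptor for oxidised lipids (chromosome 5, 17781690 to 17888801, minus strand), was the least even member. It had 324, 0 and 161 reads in the controls, 111, 26, 2350 and 1 in Mertk KO, and 6, 621 and 1391 in Ptdss1 knockdown. The highest library was in Mertk KO, and each group held a library with 6 reads or fewer. Over control, it had a log2 fold change of 0.91 (SE 2.46, 95% interval -4.26 to 6.08) in Mertk KO and 2.21 (SE 2.63) in Ptdss1 knockdown, and the first turned negative under 4 of 21 settings.

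The Cd300 members lie close together on chromosome 11. Cd300a is an inhibitory receptor for phosphatidylserine and phosphatidylethanolamine (114890041 to 114904654, plus strand). Its log2 values were 10.15, 11.56 and 10.16 in the controls, 9.54, 9.60, 9.73 and 10.75 in Mertk KO, and 11.59, 10.23 and 10.23 in Ptdss1 knockdown. The first 3 Mertk KO libraries were below every control and the fourth was not. The log2 fold change of Mertk KO over control was -0.72 (SE 0.54, 95% interval -1.86 to 0.42, unadjusted p = 0.20), and it was negative under all 21 settings but only -0.25 without control replicate 2.

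Cd300lf is a phosphatidylserine receptor of myeloid cells (115116214 to 115133992, minus strand). It stood at log2 values of 11.36, 11.88 and 11.23 in the controls, 12.09, 10.99, 11.88 and 11.38 in Mertk KO, and 13.32, 10.18 and 11.13 in Ptdss1 knockdown. The groups overlapped, and Ptdss1 knockdown held both the highest and the lowest library. Limma gave a log2 fold change of Mertk KO over control of 0.10 (SE 0.58, 95% interval -1.13 to 1.32).

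Cd300lb, an activating receptor that signals through Tyrobp (114922781 to 114934386, minus strand), had 135, 323 and 309 reads in the controls, 145, 173, 773 and 2 in Mertk KO, and 2260, 310 and 752 in Ptdss1 knockdown. Mertk KO replicate 4 was far below the other libraries. Its log2 fold change of Mertk KO over control was -1.28 (SE 1.55), and it was 0.39 without that replicate. Against Ptdss1 knockdown it was -2.94 (SE 1.55, 95% interval -6.19 to 0.32, unadjusted p = 0.075), with 3 of 4 Mertk KO libraries below all of Ptdss1 knockdown, and it was -1.26 without Mertk KO replicate 4.

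Reads from near-identical stretches cannot be assigned with certainty. The check covered 75-base windows along the longest transcript of each gene, and exon sequence outside it was not checked. Of these windows, 1.88% of those of Cd300a recur in Cd300c2, Ccar1 or Naip5, and 1.56% of those of Cd300lf recur in Cd300ld. The share was 0.479% for Stab1 and 0 for the other members.

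Timd4, a phosphatidylserine receptor of resident macrophages (chromosome 11, 46810800 to 46844332, plus strand), was near absent. It had 52, 0 and 1 reads in the controls, 0, 13, 0 and 0 in Mertk KO, and 0, 13 and 0 in Ptdss1 knockdown. At least 10 reads were found in 1 library of each group, which is how it passed the filter. No difference between groups was detectable at this depth (log2 fold change -1.19, SE 1.76, in Mertk KO).

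Mfge8, the secreted bridge between phosphatidylserine and integrins (chromosome 7, 79133768 to 79149060, minus strand), had 198, 75 and 325 reads in the controls. There were 306, 326, 2 and 785 in Mertk KO, and 0, 113 and 374 in Ptdss1 knockdown. On the log2 scale 3 of 4 Mertk KO libraries (8.81, 8.06 and 9.30) were above all controls (7.34, 6.31 and 7.90), and the remaining one was at 1.39. Mertk KO over control gave a log2 fold change of -0.29 (SE 2.10, 95% interval -4.70 to 4.11), and without Mertk KO replicate 3 it was 1.54.

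In Ptdss1 knockdown against control, 0 of 10 members passed in limma, against 0.00% of all genes, and 0 of 10 had an unadjusted p under 0.05, against 2.90%. The groups overlapped for all 10 members; 3.32% of all genes were above and 3.60% below without overlap. The log2 fold changes were 0.92 (SE 0.54) for Stab1, 1.04 (SE 0.58) for Lrp1, 3.79 (SE 1.84) for Scarf1, 1.65 (SE 1.66) for Cd300lb and -2.32 (SE 2.24) for Mfge8. Adjusted p-values ran from 0.841 to 0.995. Replicate 1, the library of low complexity, was the highest of its group for 6 members (Stab1, Lrp1, Scarf1, Cd300a, Cd300lf and Cd300lb). Without it the log2 fold changes were 0.24 for Stab1, 0.21 for Lrp1, 0.85 for Cd300lb and 0.11 for Mfge8. That of Scarf1 was 2.02 without control replicate 2, and 1.08 without both libraries. Both comparisons use the same 3 controls.

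Compared directly, Mertk KO and Ptdss1 knockdown gave 0 of 10 calls in limma, against 0.00%, and 0 of 10 at an unadjusted p of 0.05, against 3.73%. No member was free of overlap, against 2.91% of all genes above and 2.32% below. The log2 differences were 0.01 (95% interval -1.06 to 1.07) for Stab1, 0.06 (-1.07 to 1.20) for Lrp1 and 0.11 (-3.51 to 3.73) for Scarf1. Intervals this wide do not show that the groups were alike.

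**Figure D2:**
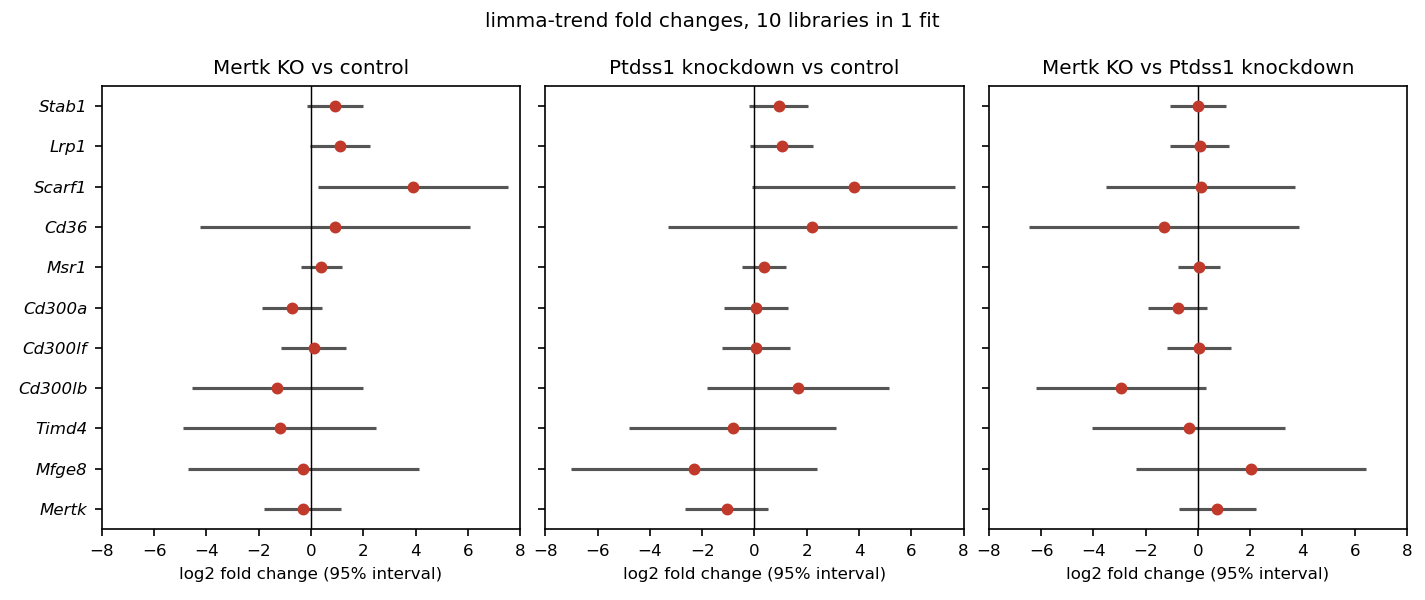
Limma-trend log2 fold changes of the 10 members and Mertk in 3 comparisons, with 95% intervals as bars. The interval excludes 0 for Scarf1 in Mertk KO against control, which has an adjusted p of 1.0, and for no other gene or comparison shown.

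Levels of different genes were compared as normalised reads per kb of exon, with all annotated exons of a gene joined. This length can exceed that of the transcript in use, so the order can depend on it. No other length was tried. By the median over the 10 libraries the order was Msr1 (1375), Cd300lf (514), Cd300a (247), Stab1 (246), Mertk (162), Lrp1 (153), Cd300lb (88.7), Mfge8 (41.6), Cd36 (39.1), Scarf1 (32.8) and Timd4 (0). Each gene's range over libraries overlapped that of its neighbours in the order. Within libraries, Msr1 was above Cd300lf in 9 of 10 and Cd300lf was above Cd300a in 9 of 10, whereas Cd300a was above Stab1, Stab1 above Mertk and Mertk above Lrp1 in 6 of 10 each. No test of the order was run.

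The 9 receptors without Mertk and without the bridge Mfge8 summed to 1982, 3308 and 2286 normalised reads per kb in the controls. The sum was 3069, 2482, 4221 and 3135 in Mertk KO and 6423, 2237 and 3499 in Ptdss1 knockdown. The groups overlapped. Mertk made up 8.46%, 4.09% and 16.85% of the summed receptor level with Mertk in the controls, 10.64%, 7.25%, 3.2% and 3.50% in Mertk KO, and 0.63%, 10.79% and 3.26% in Ptdss1 knockdown. These shares use the gene total, so they do not show how much intact Mertk was left in Mertk KO.

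**Figure D3:**
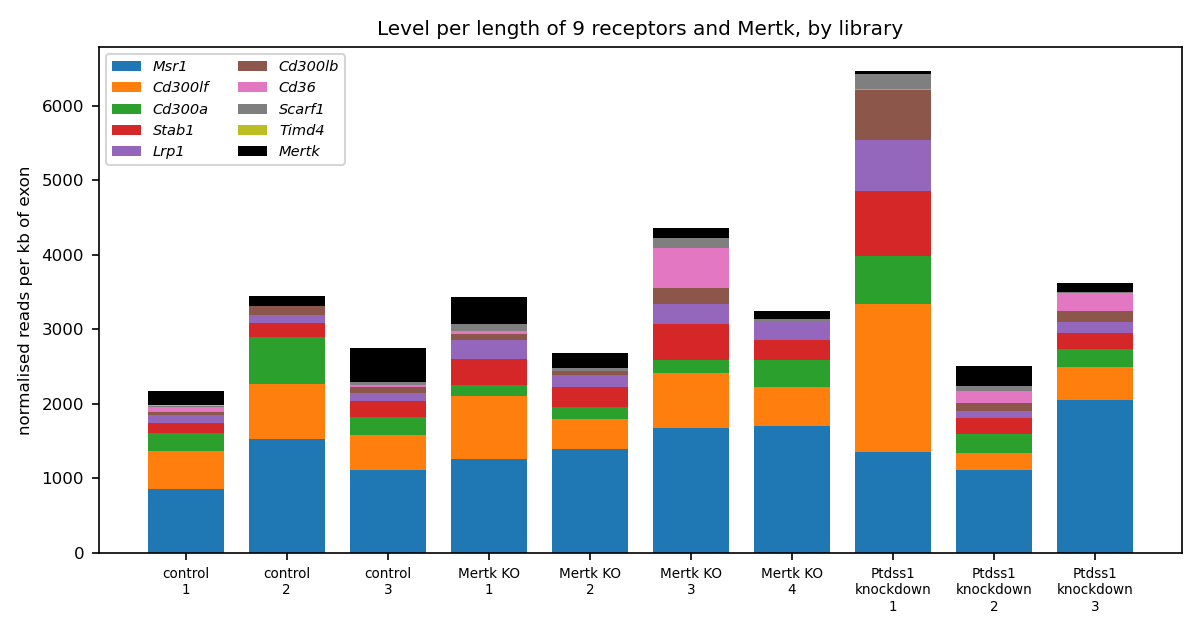
Level per length (normalised reads per kb of exon, vertical axis) of 9 receptors and Mertk, stacked for each of the 10 libraries. Msr1 is the largest block in every library except Ptdss1 knockdown replicate 1, where Cd300lf is, and the sums of the groups overlap.

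If a receptor were higher wherever the Mertk gene total was lower, its values would fall as that total rose across libraries. The total does not show which exons were read, so a library labelled Mertk KO can count as high in Mertk. Replicate 1 of Mertk KO, at a log2 value of 10.63, is such a library. The relation therefore cannot decide if a receptor is higher where intact Mertk is lost. Over the 10 libraries Pearson's r with Mertk was negative for 7 members and positive for 3, and so was Spearman's rho. None passed (10 relations, permutation test of 100000 resamples, Benjamini-Hochberg adjusted p 0.172 to 0.814 for r and 0.265 to 0.631 for rho). The lowest were Cd300a (r = -0.655, permutation p = 0.040) and Lrp1 (r = -0.655, permutation p = 0.043). Without the 2 libraries farthest from the median of Mertk, control replicate 3 and Ptdss1 knockdown replicate 1, r was -0.504 for Cd300a and -0.629 for Msr1. It was then -0.040 for Lrp1, 0.089 for Stab1 and -0.093 for Cd300lf, so those 3 relations rest on the libraries left out. The 3 groups are pooled in these values, and no group has enough libraries for a value of its own.

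**Figure D4:**
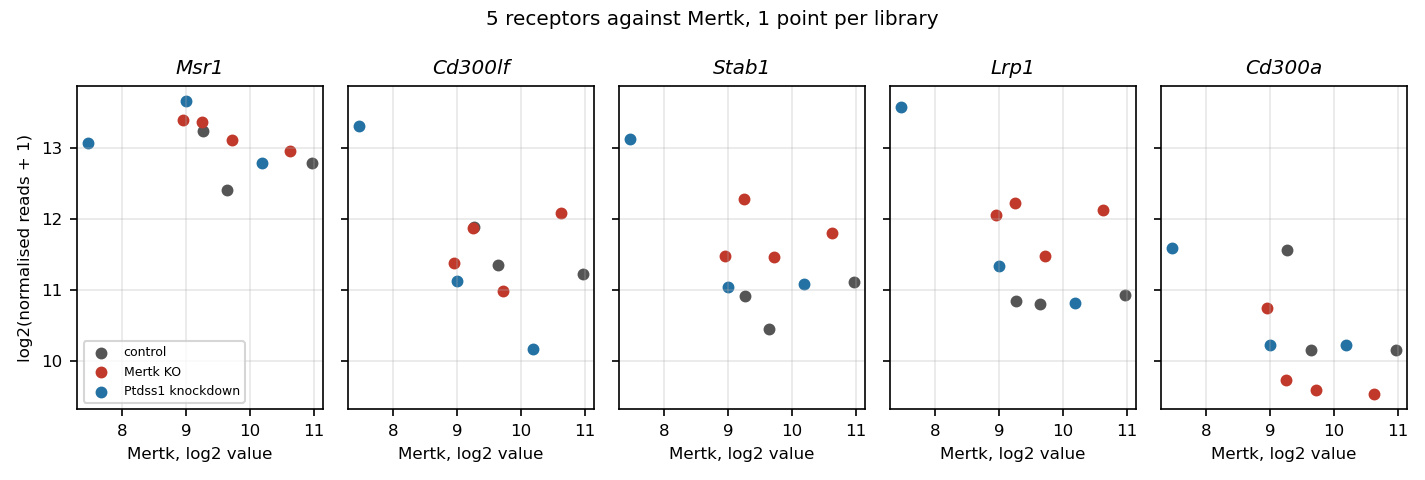
Log2 values of 5 members (vertical axis) against the log2 value of Mertk (horizontal axis), 1 point per library, coloured by group. The leftmost point is Ptdss1 knockdown replicate 1, with Mertk at 7.47, which is also the highest library for Cd300lf, Stab1, Lrp1 and Cd300a.

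Among the members, Stab1 and Lrp1 had the closest profiles (Pearson r = 0.95 over 10 libraries, 0.88 without Ptdss1 knockdown replicate 1). Cd300lf and Lrp1 had r = 0.80 (0.52 without it), Stab1 and Scarf1 0.70 (0.66), and Stab1 and Mfge8 -0.74 (-0.44). Among 6055 genes with 10 reads in all libraries, the nearest profiles were Fam20c and B4galt3 to Stab1 (r = 0.96 each) and Socs3 (0.98) and Myh9 (0.96) to Lrp1. They were Rictor (0.97) and Hivep1 (0.95) to Cd300lf, Slc29a1 and Fibp (0.95 each) to Cd300a, and Bsg (0.93) and P4ha1 (0.80) to Msr1. These points share library depth and complexity, and the values are a description.

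Other genes of the pathway were taken as 5 lists. No gene of any list passed in any of the 3 comparisons in limma. Of 24 apoptotic cell receptors that are not members, a list that includes Mertk itself, 16 were tested. In Mertk KO against control they had 9 positive and 7 negative log2 fold changes, Mertk among the negative ones, and a median of 0.51. Axl, the relative of Mertk that also binds Gas6, was at log2 values of 12.33, 12.38 and 12.51 in the controls, 11.42, 11.30, 10.35 and 11.54 in Mertk KO, and 14.20, 12.05 and 11.72 in Ptdss1 knockdown. All Mertk KO libraries were below all others for Axl (log2 fold change over control -1.26, SE 0.53, unadjusted p = 0.029, adjusted p = 1.0). Cd14, a lipopolysaccharide co-receptor that tethers apoptotic cells, was also below the controls without overlap (-0.75, SE 0.39, adjusted p = 1.0). The integrin chains Itgb2 (0.54, SE 0.48) and Itgb5 (-0.04, SE 0.57) overlapped.

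Other genes whose groups did not overlap were picked after their values were seen. Of all genes tested, 3.00% were above and 2.62% below the controls without overlap in Mertk KO. In Mertk KO the scavenger receptor Olr1 was at 7.78, 6.87, 8.58 and 6.53 against 0, 0 and 4.09 in the controls (unadjusted p = 0.0045, adjusted p = 1.0). Scarb1, the class B receptor for high-density lipoprotein, was at 7.40 to 9.58 against 2.86 to 6.93. Limma gave it a log2 fold change of 2.60 (SE 1.88, unadjusted p = 0.18), and control replicate 2 held the low value of 2.86. Tgm2, a transglutaminase that takes part in engulfment, was at 13.73, 13.62, 14.49 and 14.23 against 12.71, 13.001 and 12.90 (log2 fold change 1.14, SE 0.44, adjusted p = 1.0).

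Of 14 bridges and opsonins 11 were tested, with 6 positive, 5 negative and a median of 0.08 in Mertk KO against control. The C1q chains, which coat apoptotic cells, were among the highest genes, and their log2 fold changes were -0.08 (SE 0.32) for C1qb, -0.03 (SE 0.34) for C1qa and -0.11 (SE 0.33) for C1qc. Calr, which encodes calreticulin, was at 0.23 (SE 0.40).

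Of 9 Cd300 relatives 5 were tested, with 3 positive, 2 negative and a median of 0.45 in Mertk KO against control. Cd300c2 was at -0.48 (SE 0.56) and Cd300ld at 0.45 (SE 0.52), while Cd300ld3 was at 1.31 (SE 1.82). Cd300e, an activating receptor of monocytes, had 0 to 8 reads in the controls, 0 to 7 in Mertk KO and 41 to 1428 in Ptdss1 knockdown. It was above the controls without overlap in Ptdss1 knockdown (log2 fold change 6.06, SE 1.93, adjusted p = 0.841).

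Of 20 adaptors and partners 19 were tested, with 11 positive, 8 negative and a median of 0.07 in Mertk KO against control. The signalling chains Fcer1g (-0.10, SE 0.49) and Tyrobp (-0.14, SE 0.41), the chaperone Hsp90b1 (0.17, SE 0.35) and the GTPase Rac1 (-0.24, SE 0.40), which drives engulfment, all overlapped between groups. All 9 nuclear receptors and Maf factors were tested, with 4 positive, 5 negative and a median of -0.27. Nr4a1 was at -0.33 (SE 0.58) and Nr1h2 at -0.61 (SE 0.59). Maf was above the controls without overlap, at 0.30 (SE 0.56, adjusted p = 1.0).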

How the data were processed

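Macrophage mRNA was amplified with SMART-Seq v4 (16 PCR cycles) and sequenced as single reads of 75 cycles from unstranded ThruPLEX libraries, per the labels' protocols. The submitters' processing notes name STAR, RSEM and mm10, without versions. The values the authors deposited are log2 of size-factor-normalised reads plus 1; this unit was inferred from the values, as no header states it. Undoing the log gave whole reads, within 0.01 of a read, for 100% of values. No molecular identifiers were used, so reads are not independent molecules. Limma 3.58.1 in R 4.3.3 (limma-trend, robust moderation, all 10 libraries in 1 fit, two-sided, Benjamini-Hochberg over 11564 genes, threshold 0.05) gave the tests. It was also run on simulated reads that held no outlying library, so that check does not give its power in these data. The tests needed at least 10 reads in at least 3 libraries. No pair of libraries held identical values. Coordinates and exon lengths are from GENCODE M21 on GRCm38. The text names all members and Mertk, the 4 tested genes of highest mean in each of 5 lists, every gene past the threshold, and the 2 nearest profiles of members with 10 reads in all libraries. One gene that this rule names is not reported here. The members and lists were chosen with earlier results of these data known. The sums of 11 lists of cell type markers were also computed. Of these, 7 overlapped between Mertk KO and control beside the macrophage list: endothelial cell, adipocyte, platelet and megakaryocyte, fibroblast, neutrophil, dendritic cell and B cell. Alternatives covered normalisation, filter, pseudocount, moderation, weights, thinning and left-out libraries.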

Additional observations from a re-analysis of the deposited data

Results flagged for a closer look

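In 31 genes checked within the 4 Mertk KO libraries, 3 had a library far from the other 3, and chance alone flags about 1 in 20 groups. For Cd300a, Mertk KO replicate 4 was the highest at a log2 value of 10.75, with the others at 9.54 to 9.73. For Mfge8, Mertk KO replicate 3 was the lowest at 1.39, with the others at 8.06 to 9.30. For Timd4, Mertk KO replicate 2 was the highest at 3.54, with the others at 0. Any read in replicate 2 would have raised that flag, so the chance rate does not apply to it.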

How the results depend on the processing

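No member and no list gene passed the threshold in any comparison under any of the alternatives run (21 for the members, 10 left-out libraries for the lists). Over all genes, the count of calls in limma ranged over the 21 settings from 0 to 25 for Mertk KO against control (0 in 9 of them, 2 as reported), 0 to 2 for Ptdss1 knockdown against control and 0 to 35 for the direct comparison. Upper-quartile factors moved the median of all genes by -0.18 in Ptdss1 knockdown against control and by 0.19 in the direct comparison. Timd4 could be fitted in 15 of 21 settings. No paired analysis was possible because the labels give no pairing of libraries between groups. The titles number the samples but not the replicates, so the replicate numbers used here follow the order of the samples.

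The results below changed sign under some alternative setting, and the cause was not tested. They are log2 fold changes, apart from the correlations with Mertk given last. Ranges also print the end that kept its sign. With 1 library left out, Mertk KO over control ranged from -1.58 to 2.60 for Cd36, -0.071 to 0.29 for Cd300lf, -2.25 to 0.39 for Cd300lb, -1.10 to 1.54 for Mfge8 and -0.67 to 0.19 for Mertk. Ptdss1 knockdown over control ranged from -0.28 to 4.48 for Cd36, -0.40 to 0.53 for Cd300a, -0.84 to 0.73 for Cd300lf and -3.81 to 0.11 for Mfge8. Mertk KO over Ptdss1 knockdown ranged from -0.35 to 0.69 for Stab1, -3.57 to 0.39 for Cd36, -0.64 to 0.93 for Cd300lf, -0.48 to 0.90 for Lrp1, -0.93 to 1.05 for Scarf1, -0.40 to 3.86 for Mfge8 and -0.16 to 0.28 for Msr1. With array weights the values were -1.46 (Cd36) and 0.54 (Mfge8) for Mertk KO over control, -0.017 (Cd300a), -0.45 (Cd300lf) and 0.0029 (Mfge8) for Ptdss1 knockdown over control, and 0.78 (Timd4) and -0.32 (Msr1) for the direct comparison. A pseudocount of 8 gave 0.12 for Mfge8 in Mertk KO over control. Upper-quartile factors gave -0.16 for both Cd300a and Cd300lf in Ptdss1 knockdown over control. Median-of-ratios factors gave -0.015, and thinning to the smallest total -0.011, for Stab1 in the direct comparison. Without both control replicate 2 and Ptdss1 knockdown replicate 1, Cd36 was at -1.58 in Mertk KO over control, Cd300lf at -0.64 in Ptdss1 knockdown over control, and Mfge8 at -0.40 and Msr1 at -0.015 in the direct comparison. The correlation with Mertk turned positive for Stab1 (0.089), Cd300lb (0.268) and Scarf1 (0.368) without the 2 libraries farthest from the median of Mertk, and for Cd300lb (0.318) and Scarf1 (0.232) without control replicate 2 and Ptdss1 knockdown replicate 1.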
